A study of Rattus norvegicus with 6 samples.

Results

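The enzymes that carry cyclic AMP and calcium signals inside neurons were compared in the whole hippocampus of 2 rat groups that the labels name SHA (Syracuse High Avoidance) and SLA (Syracuse Low Avoidance), called lines here. The set holds 54 listed genes. It runs from adenylyl cyclases, protein kinase A (PKA) subunits, phosphodiesterases and CREB factors through phospholipase C, protein kinase C (PKC), calmodulin and calcineurin to the JNK, Akt, Gsk3, Cdk5 and Src kinases. Members were the probe sets that the array annotation assigns to exactly 1 of these genes, which gave 82 of 8799 probe sets and 47 of the 54 genes. The membership rule matches gene names only.

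Each line was measured as 3 pools of 3 rats, 1 one-colour array per pool, in total RNA. Both lines were tested in two-way active avoidance, a task in which a signal warns of a shock that the animal can avoid by crossing to the other compartment, and tissue was taken 2 weeks after testing. No untested rats were analysed here, so a lasting difference between the lines and a difference in what testing left behind cannot be told apart. The labels give no age or sex. Nothing says how rats were assigned to pools, so p-values measure only the spread between these pools. A level below is the authors' linear intensity of 1 probe set in 1 pool. A difference is the SHA mean minus the SLA mean of log2 intensity, with its standard error, and n = 3 pools per line throughout.

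In this signalling system, receptors act through G proteins on 2 main branches. Adenylyl cyclases make cyclic AMP, which frees the catalytic subunits of PKA, and phosphodiesterases break it down again. Phospholipase C makes diacylglycerol and inositol trisphosphate, which activate PKC and release stored calcium, and calcium bound to calmodulin switches on CaM kinases and the phosphatase calcineurin. In the hippocampus these enzymes are known for setting the strength of synapses during learning, in part through phosphorylation of CREB.

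No member differed between the lines by limma's test. Of the 82 probe sets, 69 from 43 genes were bright enough to be tested, and none had an adjusted p under 0.05. The share over all probe sets tested was 0%, and the adjusted p was 1.00 for every member. At an unadjusted p under 0.05 there was no member in either direction, against 0.366% of all 6555 probe sets tested that were higher in SHA and 1.13% that were lower. All 3 SHA pools lay above all 3 SLA pools for 1 of the 69 (1.45%), where 2.01% of all probe sets did so. None of the 69 had all SHA pools below all SLA pools, where 3.65% of all probe sets did so. With 1 probe set per gene, the brightest, 24 of 43 genes were higher in SHA and 19 lower, with a median difference of 0.03, beside -0.03 over the 3812 genes tested. With the mean of all tested probe sets of a gene in place of the brightest, 32 of 43 were higher and the median was 0.12. After median centring the split was 29 to 14 and the median 0.08. Without SLA pool 1 it was 22 to 21, with a median of 0.01.

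The precision of these arrays limits what can be said of any single enzyme. The 95% interval of a member's difference reached 0.85 log2 units to either side at the median, and for 32 of the 69 it lay wholly within 1 unit of 0, that is within a 2-fold change. The median size of a member's difference was 0.23, and 0.24 over all probe sets. In whole tissue, fewer cells of a type and less RNA per cell cannot be told apart. No marker of the lists was at or under the floor in all 6 pools. Marker sums weigh the brightest genes most. Summed over the markers on the array, hippocampal neuron markers read 5516 to 7858 in SHA pools and 4220 to 7215 in SLA pools. Microglial and immune markers, 11 of 16 on the array, summed to 2770 to 3632 in SHA and 4511 to 4951 in SLA, without overlap. Their part in the members' values was not tested.

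**Figure D1:**
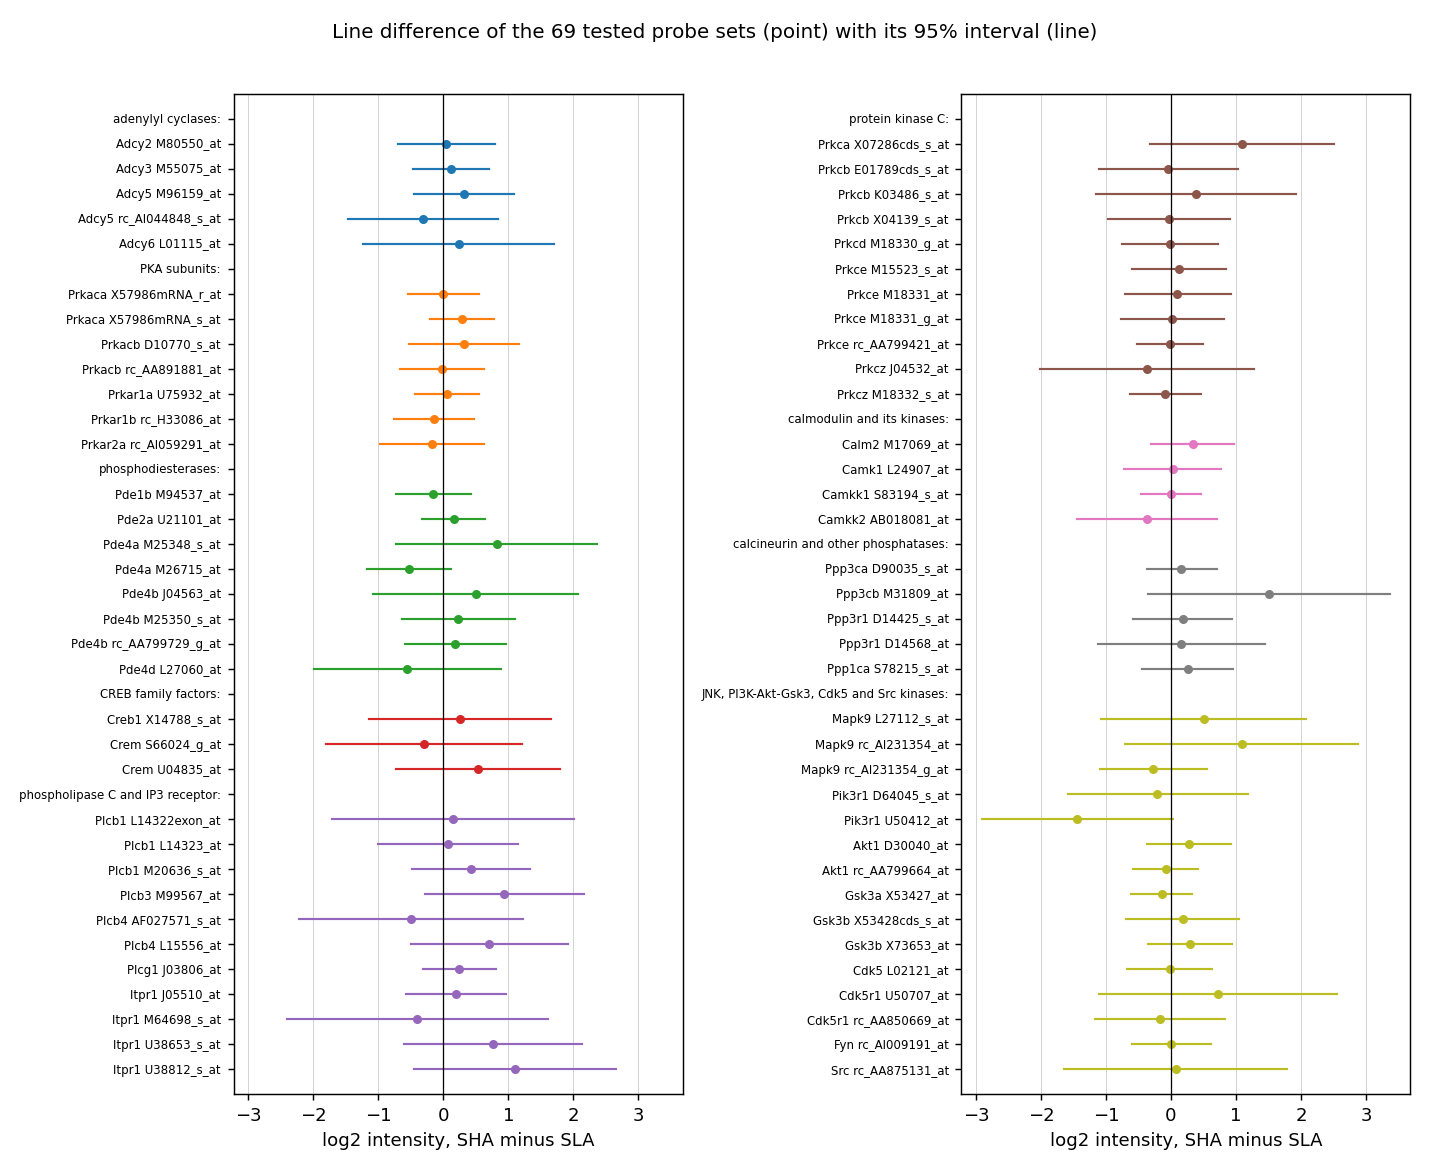
Difference between lines (SHA minus SLA, log2 intensity, horizontal axis) for each of the 69 tested probe sets, grouped by role; the point is the difference and the line its 95% interval from limma. Every interval includes 0, and the widest departures are Ppp3cb at 1.51 and Pik3r1 at -1.44.

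Adenylyl cyclases, which make cyclic AMP from ATP, showed 4 of 4 tested genes slightly higher in SHA on their brightest probe set, at 0.05 to 0.32. Without SHA pool 1, and likewise without SLA pool 1, 2 were higher and 2 were not. Adcy2 read 1587, 886.1 and 916.2 in SHA pools 1, 2 and 3 and 1460, 711.1 and 1126 in SLA pools 1, 2 and 3. The lines overlapped, with both pools numbered 1 the highest, and the difference was 0.05 ± 0.33. Adcy3 differed by 0.12 ± 0.26 and Adcy6 by 0.24 ± 0.65. Adcy5 read 233, 220.4 and 244.4 against 119.9, 244.1 and 221.9 on M96159_at. SLA pool 1 stood apart below the other 5 pools, and the difference was 0.32 ± 0.34. Another probe set of Adcy5, rc_AI044848_s_at, went the other way at -0.31 ± 0.51. Adcy8 was among the 13 probe sets left out as dim, at 14.0, 34.5 and 23.6 against 59.2, 2.3 and 15.2.

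PKA, the main kinase that cyclic AMP activates, is built of regulatory and catalytic subunits. Among its genes 2 of 5 tested were higher and 3 lower on the brightest probe set (3 higher and 2 lower after median centring), at -0.17 to 0.29. Prkaca, a catalytic subunit, read 1204, 1300 and 1057 in SHA and 902.2, 1100 and 906.1 in SLA on X57986mRNA_s_at. Only SHA pool 3 and SLA pool 2 overlapped, and SHA was higher within every pool number. The difference was 0.29 ± 0.22, with an adjusted p of 0.33 when pool number and array weights were both in limma's fit. Its other probe set differed by 0.00 ± 0.24, with an interval of -0.54 to 0.55. The catalytic subunit Prkacb differed by 0.32 ± 0.38 and -0.02 ± 0.29 on its probe sets. Among regulatory subunits, Prkar1a read 803.8, 877.2 and 884.9 against 717.8, 942.3 and 814.3 (0.06 ± 0.22). Prkar1b read 5036, 3664 and 5117 against 5794, 4165 and 5242, lower in SHA within every pool number, by only 0.03 to 0.20 (-0.14 ± 0.27). Both pools numbered 2 were the lowest for this gene. Prkar2a differed by -0.17 ± 0.36, and Prkar2b read 3.2, 10.3 and 25.4 against 58.8, 7.3 and 20.7 and was not tested.

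Phosphodiesterases, which end the cyclic nucleotide signal, had 2 of 5 genes higher and 3 lower. Pde2a, which degrades cyclic AMP and is stimulated by cyclic GMP, read 760.6, 933.2 and 861.5 in SHA and 727.6, 820.7 and 723.6 in SLA. It was higher in SHA within every pool number, and the difference of 0.17 ± 0.22 was smaller than its standard error. Pde1b, activated by calmodulin, differed by -0.15 ± 0.26. The probe sets of Pde4a, a cyclic AMP-specific enzyme with several isoforms, disagreed. On M26715_at the levels were 355.4, 392.9 and 228.5 against 528.9, 479.6 and 378.1. SHA was lower within every pool number, with SHA pool 2 above SLA pool 3, and the difference was -0.53 ± 0.29, or -0.29 without SHA pool 3. On M25348_s_at they were 117.3, 283.1 and 102.4 against 35.2, 231.2 and 76.7, with SHA higher within every pool number (0.82 ± 0.69). That difference was 0.18 without SLA pool 1, 0.36 without SHA pool 2 and 1.53 without SLA pool 2. The 3 tested probe sets of Pde4b all lay higher, at 0.18 to 0.50. Pde4d differed by -0.55 ± 0.64, with SLA pool 1 the highest pool at 134.0.

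CREB family factors bind the cyclic AMP response element, a short palindrome in the promoters of genes that cyclic AMP switches on. Creb1, the activator that PKA phosphorylates, read 77.8, 41.9 and 111.4 in SHA and 119.1, 55.0 and 32.2 in SLA, with a difference of 0.26 ± 0.62. Crem, whose internal promoter yields the repressor ICER, gave 2 tested probe sets of opposite sign. S66024_g_at read 173.0, 146.7 and 54.7 against 317.4, 54.6 and 149.8 (-0.30 ± 0.67), and U04835_at read 76.6, 38.5 and 65.3 against 28.7, 41.5 and 53.4 (0.53 ± 0.56). For S66024_g_at the highest pool was 5.81-fold above the lowest, with no order by line. The difference was 0.71 with pool number and array weights in the fit, and -0.88, 1.43 and -1.45 within the pool numbers 1, 2 and 3. The other Crem probe sets, S66024_at and Z15158mRNA_at, were at or under the floor of 8.9 in 2 and 3 of the 6 pools.

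The response element itself was looked for in the promoters of the members, to show which of them carry the site their own pathway acts on. RefSeq promoters (GRCr8, 250 bases before to 50 after each start) were at hand for 43 of the 54 genes, with 57 start sites. The full palindrome TGACGTCA, which reads the same on both strands, was in 4 of these 57 promoters (7.02%) and in 1.83% of all 33469 promoters in the table. Its 5-base core, TGACG or CGTCA, which the full site contains, was in 38.6% against 21.2%. The members' promoters were also richer in G and C, at a median of 66.3% against 51.7%. Full sites lay in 3 genes, and are shown 5′ to 3′ on the plus strand with the palindrome in capitals. In Crem they belong to 2 start sites: 56 bases before one (chr17:58984721-58984768), and 35 bases before (chr17:58985435-58985482) and 40 bases after (chr17:58985509-58985539) the other. In Ppp2ca the site lies 53 bases before the start (chr10:36858964-36859011), and in Mapk10 78 bases before it (chr14:6802196-6802243).
Crem, one start site: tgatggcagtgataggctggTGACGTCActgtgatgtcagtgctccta
Crem, the other start site, before it: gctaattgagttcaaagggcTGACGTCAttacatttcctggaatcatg
Crem, the other start site, after it: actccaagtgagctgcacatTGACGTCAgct
Ppp2ca: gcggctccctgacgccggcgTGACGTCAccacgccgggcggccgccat
Mapk10: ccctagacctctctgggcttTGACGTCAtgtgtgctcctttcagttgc
A match is a description of these letters only. No probe set that reads these 3 genes passed the test. The Crem values are given above, and Ppp2ca and Mapk10 could be read only on probe sets that also name a relative. Those shared with Ppp2cal1 differed by 0.24 ± 0.44 and 0.20 ± 0.29, and the one shared with Mapk8 by -0.24 ± 0.32.

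Phospholipase C enzymes and the inositol trisphosphate receptor had 4 of 5 genes higher in SHA and 1 lower, with a median of 0.20, and held the 1 member probe set whose lines did not overlap. Without SLA pool 1 the split was 2 higher and 3 lower, with a median of -0.21. Plcb4, a G protein-activated phospholipase C, read 53.6, 52.8 and 52.3 in the SHA pools and 25, 36 and 37.9 in the SLA pools on L15556_at. The 3 SHA pools were nearly identical and all above SLA, a difference of 0.71 ± 0.54 that did not pass limma's test (interval -0.50 to 1.92). Its other probe set, AF027571_s_at, read 19.5, 26.4 and 144.9 against 57.8, 50.5 and 71.7, with the lines overlapping and the sign reversed (-0.50 ± 0.77), so the gene as a whole showed no common direction. Plcb3 read 170.2, 92.4 and 209.9 against 41.5, 76.1 and 147.1 (0.94 ± 0.54). The difference was 0.49 without SLA pool 1 and 1.41 without SLA pool 3. SHA was higher within every pool number, by 2.04, 0.28 and 0.51 in the pools numbered 1, 2 and 3. The other Plcb3 probe set, M99567_g_at, was too dim to test and lay lower in SHA, at -0.24. Plcb1, abundant in hippocampal pyramidal cells, differed by 0.07 to 0.43 on 3 probe sets. Plcg1, the isoform downstream of growth factor receptors, read 432.3, 323.6 and 353.8 against 290.5, 301.3 and 333.4 (0.25 ± 0.25).

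Itpr1, the receptor that releases calcium from the endoplasmic reticulum, had 5 probe sets, 4 of them tested. On U38812_s_at it read 154.4, 230.5 and 160.6 in SHA and 23.8, 164.4 and 148.4 in SLA. SLA pool 1 was far under every other pool, and the difference of 1.10 ± 0.69 was 0.19 without it. The brightest probe set, J05510_at, read 705.6, 782.7 and 684.6 against 357.4, 812.4 and 865.7 (0.20 ± 0.34, and -0.21 without SLA pool 1). U38653_s_at differed by 0.77 ± 0.61, and by 0.10 without SLA pool 1. The remaining tested probe set differed by -0.40 ± 0.90, with signs in both directions when single pools were left out (-0.98 to 0.57).

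PKC isoforms, a kinase family whose classical members diacylglycerol and calcium activate, had 2 of 5 genes higher in SHA and 3 lower (4 and 1 after median centring). Prkcb and Prkce differed more by pool number than by line. Prkcb, the beta isoform, read 241.9, 728.5 and 644.4 in SHA and 281.8, 731.0 and 597.2 in SLA on E01789cds_s_at. On X04139_s_at it read 745.2, 1935 and 1608 against 805.6, 1829 and 1682, and on K03486_s_at 234.4, 914.6 and 543.5 against 126.1, 824.0 and 501.6. On all 3 probe sets both pools numbered 1 were below the other 4 pools, while the line differences were -0.04 ± 0.48, -0.03 ± 0.42 and 0.39 ± 0.68. Prkce, the calcium-independent epsilon isoform, had both pools numbered 2 on top on all 4 of its probe sets. On M18331_g_at it read 1465, 2365 and 1209 against 1444, 2462 and 1123, a line difference of 0.02 ± 0.35. The 4 differences of Prkce ran from -0.01 to 0.12. Prkcd, the delta isoform, read 135.4, 125.4 and 158.6 against 125.1, 156.9 and 141.1 (-0.01 ± 0.33). Prkcz, an atypical isoform, differed by -0.09 ± 0.24 and -0.37 ± 0.73.

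**Figure D2:**
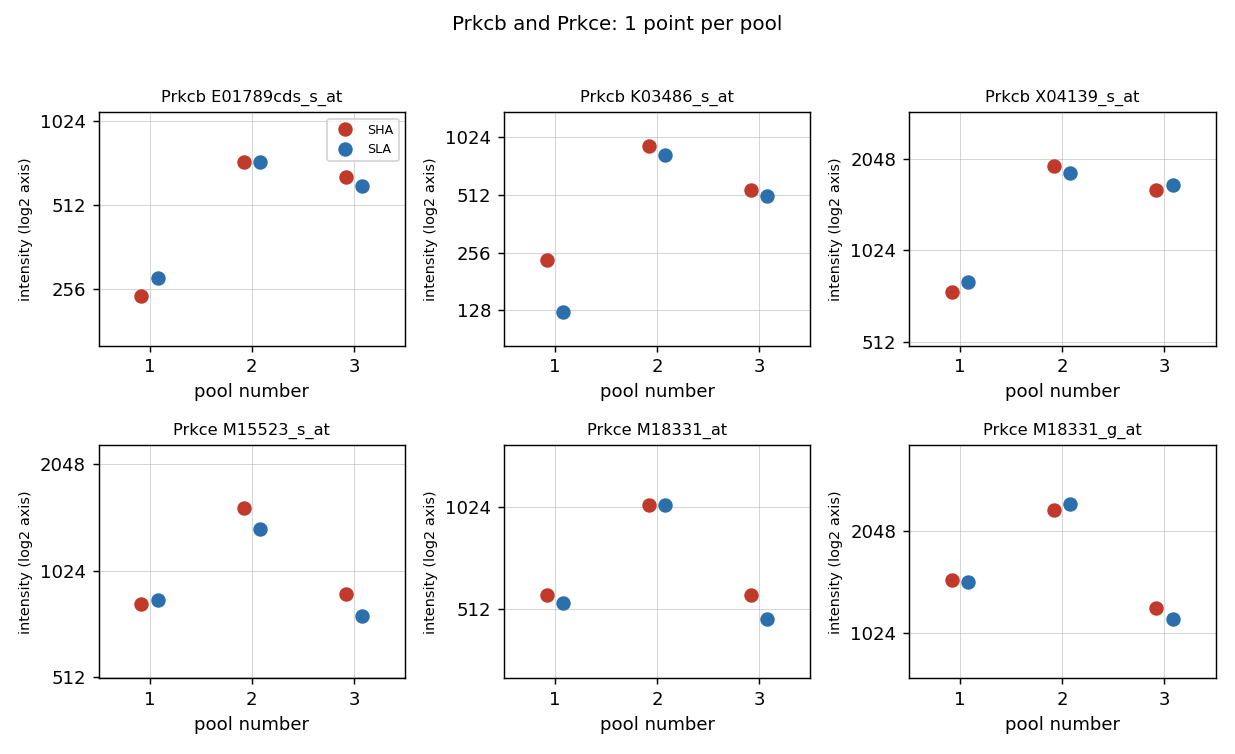
Intensity (log2 axis) by pool number for the 3 probe sets of Prkcb and 3 of the 4 of Prkce, 1 point per pool, SHA in red and SLA in blue. Points of the same number lie close together; the pools numbered 1 are low for Prkcb and those numbered 2 high for Prkce.

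Prkca, the alpha isoform, was the PKC gene with the widest difference. It read 88.4, 39.6 and 69.5 in SHA and 16.8, 48.2 and 31.1 in SLA, a difference of 1.09 ± 0.63 with an interval of -0.33 to 2.51. SHA was higher in the pools numbered 1 and 3 (2.40 and 1.16) and lower in those numbered 2 (-0.28). The difference was 0.69 without SLA pool 1 and 0.24 with pool number and array weights.

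Calmodulin and its kinases had 2 of 4 tested genes higher in SHA and 2 lower (3 and 1 after median centring). Calm2, 1 of the genes for the calcium sensor calmodulin, read 4722, 3097 and 4580 in SHA and 2783, 2868 and 4175 in SLA. SHA was higher within every pool number, but SLA pool 3 lay above SHA pool 2, and the difference was 0.34 ± 0.28. Camkk1, the kinase that activates CaM kinases I and IV, had the tightest values of the set. It read 1853, 1745 and 1673 against 1771, 1733 and 1763, a difference of 0.00 ± 0.21 with an interval of -0.46 to 0.46. Camkk2 differed by -0.37 ± 0.48 and Camk1 by 0.03 ± 0.33. Camk4, the CaM kinase of neuronal nuclei, was too dim to test on both of its probe sets, at 7.2 to 37.6 over pools.

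Calcineurin, the calcium-activated phosphatase, and protein phosphatase 1 had 4 of 4 tested genes higher in SHA, with a median of 0.22, and none passed the test. The split held after quantile normalization and median centring but not without SLA pool 1, where 2 were higher and 2 lower with a median of -0.01. There Ppp3r1 turned to -0.19 and Ppp1ca to -0.07. Ppp3cb, a catalytic subunit of calcineurin, had the largest positive difference of all 69 probe sets. It read 172.2, 219.8 and 233.7 in SHA and 15.0, 204.0 and 126.1 in SLA, with SHA pool 1 under SLA pool 2, a difference of 1.51 ± 0.83. Within the pool numbers 1, 2 and 3 it was 3.52, 0.11 and 0.89, and without SLA pool 1 it was 0.37. The other catalytic subunit, Ppp3ca, which is the main one in brain, read 3776, 3718 and 3118 against 2738, 3225 and 3541 (0.16 ± 0.24). Ppp3r1, the regulatory subunit, read 556.7, 724.3 and 722.9 against 350.0, 878.0 and 653.8 on D14425_s_at (0.18 ± 0.34) and differed by 0.16 ± 0.57 on D14568_at. Ppp1ca, a catalytic subunit of protein phosphatase 1, read 988.5, 1267 and 1380 against 633.6, 1324 and 1202 (0.26 ± 0.31). For each of the 5 probe sets of this group SLA pool 1 was the lowest pool.

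Among the kinases further downstream, 3 of 9 tested genes were higher in SHA and 6 lower (4 and 5 after median centring). Pik3r1, the regulatory subunit of PI3-kinase, had the largest negative difference. On U50412_at it read 44.0, 65.0 and 15.6 in SHA and 142.3, 106.5 and 59.0 in SLA. SHA was lower within every pool number, by 1.69, 0.71 and 1.92, and the lines overlapped only at SHA pool 2 and SLA pool 3. The difference of -1.44 ± 0.65 had an interval of -2.91 to 0.03, and was -0.85 without SHA pool 3. Its other probe set, D64045_s_at, read 50, 58.7 and 24.9 against 33.1, 80.3 and 42.3 and differed by -0.21 ± 0.62.

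Mapk9, or JNK2, read 92.4, 149.7 and 127.0 in SHA and 13.8, 149.7 and 87.9 in SLA on rc_AI231354_at. SLA pool 1 was again far under the rest, and the difference of 1.09 ± 0.80 was 0.07 without it and 1.79 without SLA pool 2. Another probe set, rc_AI231354_g_at, read 111.6, 225.9 and 146.3 against 150.2, 216.2 and 199.1 and differed by -0.27 ± 0.36. There SLA pool 1 was not the lowest. The remaining probe set of Mapk9, L27112_s_at, differed by 0.50 ± 0.70, and by -0.29 without SLA pool 1. Mapk8, or JNK1, was not tested, at 7.0 to 15.6 in SHA and 9.2 to 103.5 in SLA. Akt1, the kinase activated by PI3-kinase, differed by 0.28 ± 0.29 and -0.08 ± 0.22, and its targets Gsk3a and Gsk3b by -0.14 ± 0.21 (Gsk3a) and by 0.18 ± 0.39 and 0.30 ± 0.29 (Gsk3b). Gsk3a read 949.3, 1009 and 1159 against 1207, 1147 and 1081, with the lines overlapping. Cdk5, a kinase active in postmitotic neurons, differed by -0.02 ± 0.29. Its activator Cdk5r1 differed by 0.72 ± 0.81 and -0.17 ± 0.45. The Src family kinases Fyn, at 531.5, 765.1 and 620.7 against 488.9, 821.8 and 622.2, and Src, at 93.7, 27.3 and 144.4 against 128.0, 27.8 and 90.3, differed by 0.00 ± 0.27 and 0.07 ± 0.77. For Src both pools numbered 2 lay far under the other 4.

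**Figure D3:**
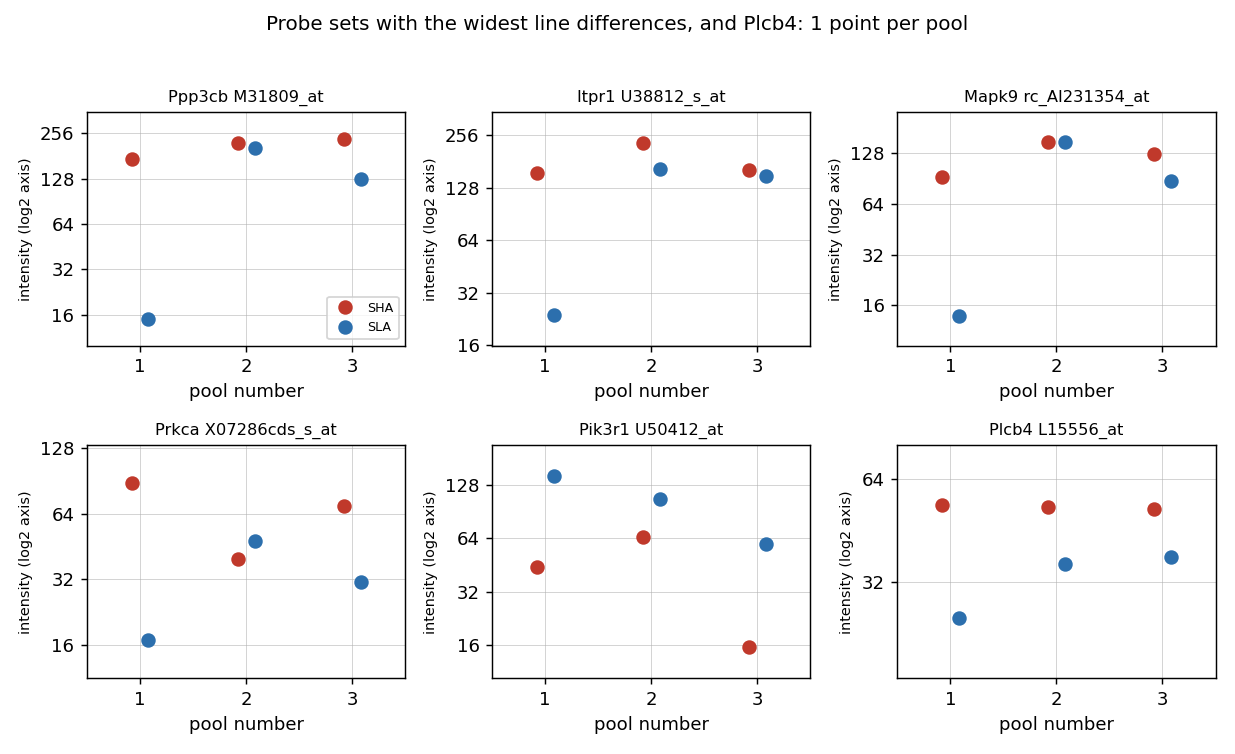
Intensity (log2 axis) by pool number for the 5 probe sets with differences over 1 log2 unit and for Plcb4, 1 point per pool, SHA in red and SLA in blue. A single low value in SLA pool 1 stands out for Ppp3cb (15.0), Itpr1 (23.8) and Mapk9 (13.8), whereas for Plcb4 the SHA pools lie together at 52.3 to 53.6.

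Probe sets of the same gene often disagreed. Of the 22 member genes with more than 1 probe set, 18 had at least 2 tested, and in 11 of these the probe sets differed in sign. The 7 with a common sign were Prkaca (at 0.00 on 1 probe set), Pde4b, Plcb1, Ppp3r1 and Gsk3b, higher in SHA, and Prkcz and Pik3r1, lower. The dim, untested Pde4b probe set, rc_AA799729_at, was lower at -1.02. Some of the 11 differed in sign only close to 0, such as Prkce at -0.01 to 0.12. The share of genes with mixed signs over the whole array was not counted. The differences ran from -0.40 to 1.10 for Itpr1 and from -0.27 to 1.09 for Mapk9. Which stretch of a transcript each probe set reads was not used here.

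One pool stood out among the members. SLA pool 1 held the lowest of the 6 values for 29 of the 69 tested probe sets, or 42.0%, while over all 6555 probe sets it held the lowest for 24.5%. It also held the highest value for 27.4% of all probe sets, but for 17.4% of the members. In that pool the hippocampal neuron markers summed to 4220, the lowest of the 6 pools, followed by SHA pool 1 at 5516. Nefl (1386) and Snap25 (911.7) gave much of that sum. On their brightest probe sets these 2, Calb1, Homer1, Neurod1 and Syt1 were lowest in SLA pool 1. Neurod2 was lowest in SLA pool 3, and Camk2a (314.9) and Nptx1 (610.3) were not low in SLA pool 1. The oligodendrocyte markers summed to 26795 in SLA pool 1 and 21818 in SHA pool 1, and to 14961 to 16923 in the other 4 pools. Much of each sum was Mbp, at 17567 in SLA pool 1 and 13919 in SHA pool 1. On their brightest probe sets Mobp and Mag were also highest in these pools. Mal was lowest in them, at 683.8 and 652.0, and Cnp and Mog lay within the range of the others. Blood markers summed to 4973 in SHA pool 1 and 4549 in SLA pool 1, and to 2231 to 3043 elsewhere. Much of each sum was Hbb, at 2864 in SHA pool 1 and 2292 in SLA pool 1, and Hbb-b1, at 1771 and 1648. Alas2 was lowest in SHA pool 1 at 93.9, and Slc4a1 on its brightest probe set was highest in SLA pool 1 at 471.6. Markers of thalamus, hypothalamus and neocortex summed highest in SLA pool 1 at 1988, with 971 to 1525 in the others. On their brightest probe sets Avp (434.1), Ghrh (600.7), Hcrt (427.4) and Trh (255.1) were highest in SLA pool 1. Prkcd was lowest there at 125.1, and Oxt, Pomc and Th were highest in other pools. The part of tissue makeup in the members' values was not tested. Without SLA pool 1, 47 of the 69 member differences kept their sign.

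**Figure D4:**
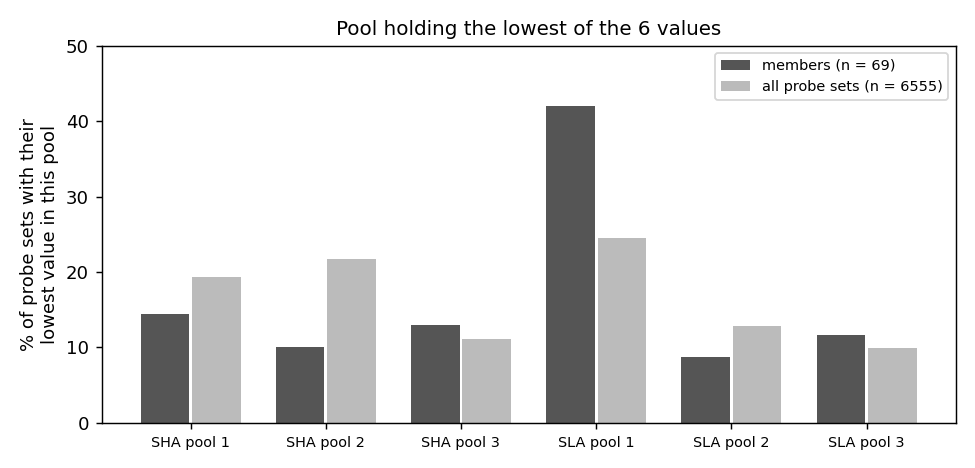
Percentage of probe sets whose lowest of 6 values lay in each pool, for the 69 tested members (dark bars) and all 6555 probe sets tested (light bars). SLA pool 1 held the lowest value for 42.0% of members and 24.5% of all probe sets.

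The spread left between arrays was smaller with pool number in the fit. The median residual SD of the members was 0.49 log2 units by line alone and 0.31 with pool number as a replicate block, and over all probe sets 0.52 and 0.32. It was lower with the block for 49 of the 69 members (71.0%), beside 74.8% of all probe sets. The pairs were inferred from these same data, and the block fits more terms to the same arrays. The drop is therefore no separate evidence that same-numbered pools belong together. With the replicate block, 1 member had an unadjusted p under 0.05 on the higher side, Ppp3cb, where 2.27% of all probe sets did, and 2 on the lower side, Pde4a on M26715_at and Pik3r1 on U50412_at, where 2.99% did. None passed (adjusted p = 0.83 in limma for each). With array weights added, 0.183% of all probe sets passed and no member did, with adjusted p of 0.28 for Pik3r1 as the lowest. Within every pool number SHA lay above SLA for 14 of the 69 and below it for 4, or 20.3% and 5.80%, beside 12.7% and 15.2% of all probe sets. The count of members at an unadjusted p under 0.05 was 0 with all pools. Without SLA pool 2 it was 4, all higher in SHA (Pde4a on M25348_s_at, Ppp3cb, Mapk9 and Itpr1), or 5.80% beside 2.32% of all probe sets. Without SLA pool 3 it was 2 (Plcb3 and Pik3r1), or 2.86% beside 0.87%. Without SHA pool 2 it was 1 (Pik3r1), or 1.43% beside 2.30%. The adjusted p stayed at 1.00 for each.

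The other genes of these pathways were taken from a list of 141 cyclases, anchoring proteins, phosphodiesterases, kinases, phosphatases, calcium sensors and related genes, of which 95 were on the array. Of the 86 genes tested, 50 were higher in SHA and 36 lower, with a median of 0.10. Over all 3812 genes tested 1746 were higher and 2066 lower, with a median of -0.03. None of the 140 probe sets of these pathway genes had an unadjusted p under 0.05. The lines did not overlap for 9 of the 140, 6 higher and 3 lower, or 6.43%, beside 5.66% of all probe sets tested. Examples of those higher, chosen after their values were seen, were Camk2n1 and Camkv. Camk2n1, an inhibitor of CaM kinase II, read 260.4, 301.4 and 287.0 in SHA against 192.5, 83.9 and 240.1 in SLA (0.85 ± 0.41, and 0.39 without SLA pool 2). Camkv, a kinase-like protein of neurons, read 2130, 2034 and 1785 against 1706, 1638 and 1591 (0.27 ± 0.21). The second probe sets of both genes were also higher, by 0.51 ± 0.34 and 0.26 ± 0.36, with the lines overlapping. Such agreement did not hold for all of those higher. Akt2 differed by 0.94 ± 0.51 on rc_AI105076_s_at and by -0.26 ± 0.46 on its other probe set. Mapk14 differed by 0.97 ± 0.61 on U91847_s_at and by -0.14 to 0.42 on its other tested probe sets. Camk2b (0.13 ± 0.22) and Ywhaz (0.39 ± 0.24) had no probe set lower in SHA. The 3 lower were Prkg2 (-1.41 ± 0.74, with SHA pool 1 at 1.6, under the floor), Plcg2 (-0.50 ± 0.52) and Camk2g on S71570_s_at (-0.24 ± 0.23). Other probe sets of Camk2g differed by 0.42 ± 0.32 and -0.86 ± 0.56.

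Of the 54 listed genes, 7 had no probe set of their own: Atf4, Calm3, Mapk10, Pde1a, Pde10a, Ppp1r1b and Ppp2ca. A further 4 genes, Adcy8, Prkar2b, Camk4 and Mapk8, had only dim probe sets and were not tested. Of the 13 dim probe sets, 11 were at or under the floor in at least 1 pool, as was 1 of the 69 tested, Itpr1 on M64698_s_at.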

How the data were processed

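The authors deposited a linear intensity for each probe set in each pool. The sources used here do not name the authors' array software or scaling. The 2%-trimmed means were 250.3 to 250.4 on all arrays, so a shift of all genes together cannot be seen. Precision is limited by there being 3 arrays per line. Detection calls were not used here. After 59 control probe sets were set aside, values under a floor of 8.9 (the 10th percentile) were raised to it and log2 was taken. Of an array's values, 4.95% to 15.9% lay at or under the floor. The dimmer 25% of probe sets was left out, and 6555 were tested with limma 3.58.1 in R 4.3.3 (lmFit, eBayes with an intensity trend, two-sided, Benjamini-Hochberg adjustment, threshold 0.05). The script was tested on simulated data.

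The members and lists were chosen with earlier results of these data known. The rule for probe sets given pool by pool took those whose lines did not overlap or with an unadjusted p under 0.05, the brightest of each role, and, for a gene so named, its probe sets of opposite sign. All others given pool by pool, including those with a difference over 1, were chosen after their values were seen. Prkcd is a member and also in the list of thalamus, hypothalamus and neocortex markers.

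The labels number the pools 1 to 3 in each line, and do not say why. For pools 1, 2 and 3, the correlation of SHA and SLA deviations around their means was 0.44, 0.68 and 0.13, so the numbers were treated as pairs, on the data alone. SHA pool 3 correlated slightly better with SLA pool 1, at 0.16. Alternatives changed the normalization, filter, floor, variance model, array weights, block and the pools used. In the fit without pool number, limma's array weights ran from 0.37 for SLA pool 1 to 5.03 for SLA pool 3. Weighted differences and counts of that fit therefore rest unevenly on the arrays. With pool number in the fit the weights were estimated anew. Those weights are not given here, so which arrays lead the values with pool number and array weights is not shown.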

Additional observations from a re-analysis of the deposited data

How the results depend on the processing

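No alternative brought a member past the threshold. Over 18 settings, the 16 named member probe sets gave 283 values, 267 with the sign and call of the report. Of the 69 members, 24 kept their sign with each pool left out in turn.

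Over all probe sets, the count at an adjusted p under 0.05 was 12 with replicate block and array weights. The count at an unadjusted p under 0.05 rose from 98 to 203 when dim probe sets were kept and was 63 when the dimmer 50% was dropped. Array weights gave 354, the replicate block 345 and both together 871. Leaving out a single pool gave 57 to 152. The count without overlap was 1589 without both pools numbered 1 and 710 to 1030 with 1 pool left out, since fewer pools overlap less often.

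For the members, the count at an unadjusted p under 0.05 was 2 with no intensity trend (2.9%, beside 2.00% of all probe sets) and 3 with the replicate block (4.35%, beside 5.26%). With weights added it was also 3 (beside 13.3%), with Prkaca in place of Ppp3cb. It was 0 to 4 when a single pool was omitted. The count without overlap was 3 after quantile normalization (4.35%, beside 6.01% of all), 2 after median centring (2.9%, beside 4.91%), 0 with the dimmer 50% left out (beside 5.95%) and 9 without both pools numbered 1 (12.5%, beside 24.2%). With 1 pool left out it was 4 to 14, or 5.71% to 20.3%, beside 10.8% to 15.7%. The median over member genes was 0.12 when each gene's probe sets were averaged.

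Signs turned for Crem S66024_g_at with block and weights (0.71), for Itpr1 J05510_at with array weights (-0.18) and without both pools numbered 1 (-0.20), for Plcb4 AF027571_s_at without both pools numbered 1 (0.04), and for Prkce M18331_g_at after quantile normalization (0.00) and with block and weights (-0.02). With 1 pool left out the ranges were -0.24 to 0.28 for Adcy2, -0.97 to 0.30 for Crem, -0.21 to 0.42 for Itpr1, -1.39 to 0.06 for Plcb4, -0.28 to 0.02 for Prkar1b and -0.25 to 0.34 for Prkce. The causes were not tested. With 3 arrays per line, small differences could not be detected, and in the fit by line alone large ones did not pass either. Cd74, one of the microglial and immune markers, differed there by -3.9 on X13044_at with an adjusted p of 0.81 in limma. With replicate block and array weights this Cd74 probe set did pass, at -3.7 with an adjusted p of 0.019 in limma. A member that did not pass is therefore not shown to be unchanged.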
